A study of Rattus norvegicus with 8 samples.

Results

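Atf3 (ENSRNOG00000003745) and Fos (ENSRNOG00000008015), genes of a pair of transcription factors of the bZIP class that are known to be induced by injury or activity, were followed across 8 libraries of rat dorsal root ganglia (DRGs). They were taken by their identifiers and are 2 of the 32623 genes in the count table. Adult Sprague-Dawley rats were either naïve or had a chronic constriction injury (CCI), in which the sciatic nerve is loosely tied with silk sutures, which gives 4 groups of 2 rats, males and females with and without CCI. Each library holds the pooled L4-L6 DRGs of 1 rat, from the operated side in CCI rats, taken on day 14 after surgery. Unoperated rats and not sham-operated rats were the controls, so the incision and the nerve injury cannot be told apart. The paper left out CCI rats whose paw withdrawal threshold fell too little, and a naïve rat that responded at an unusually low threshold. The stage of estrus was not identified. Sequencing was done in batches, and which library belongs to which batch is not given in the sources used here, so batch and group cannot be told apart.

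A bZIP protein binds DNA through a basic stretch and pairs with a partner through a leucine zipper. Fos pairs with Jun proteins to form AP-1, and it is the classic immediate-early gene, transcribed within minutes of a stimulus and then switched off. Atf3 belongs to the ATF and CREB branch and also pairs with Jun. It is scarcely expressed in intact sensory neurons and is widely used as a marker of neurons whose axons have been damaged.

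Total counts ranged from 39489103 to 60818457, and 16988 genes passed a filter on low counts and were tested, Atf3 and Fos among them. Levels are given as CPM, counts brought to the same library size by edgeR's TMM factors, which removes differences of depth but not of gene length. Values of Atf3 and Fos are therefore not set against each other as levels. Differences are log2 fold changes (log2FC) from edgeR's quasi-likelihood test, with p-values adjusted by the Benjamini-Hochberg method over all genes tested. Calls required an adjusted p below 0.05 together with a log2FC beyond 0.5 in size, except for the interaction of sex and CCI, where the adjusted p alone decided. With 2 rats a side, the smallest 2-sided p of an exact permutation test of a single gene is 0.333, so each adjusted p rests on a spread shared across genes. In the RefSeq annotation of assembly GRCr8, 1 gene (Garin4) overlaps the span of Atf3 and 0 genes overlap that of Fos. The libraries mark strand, but the sources used here do not say whether counting used it.

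Atf3 rose after CCI in both sexes, and it rose further in females. Naïve males had 614 and 602 reads on Atf3, or 11.7 and 11.0 CPM. Naïve females had 601 and 498 reads, or 12.7 and 11.8 CPM. CCI males had 3952 and 3435 reads, or 67.7 and 70.9 CPM. The naïve males thus lay just below the naïve females without overlap, and all 4 CCI rats lay far above both. CCI females had 4740 and 5203 reads, or 122 and 133 CPM, and did not overlap the CCI males.

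The 2 rats of a group were close to each other in Atf3. The CPM of rat 2 was 0.941 times that of rat 1 in naïve males (95% interval 0.839 to 1.05), 0.927 times in naïve females (0.821 to 1.05) and 1.05 times in CCI males (0.9997 to 1.10). In CCI females the ratio was 1.09 (1.04 to 1.13), which was more than counting noise by an exact binomial test of the reads of these 2 libraries (2-sided p = 3.44e-05). These intervals are Clopper-Pearson intervals and cover counting error only.

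**Figure D1:**
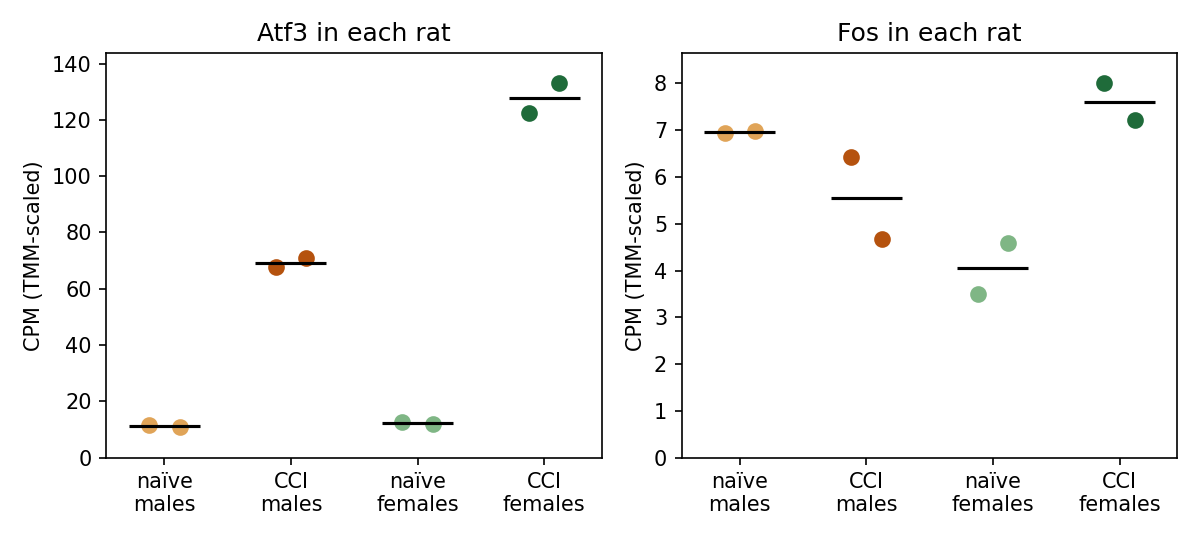
Atf3 and Fos in each rat, in CPM scaled with TMM factors, with 1 point per rat and a horizontal line at the mean of the 2 rats of a group. Atf3 sits between 11.0 and 12.7 CPM in the naïve rats and between 67.7 and 133 CPM in the CCI rats, whereas Fos lies between 3.51 and 8.01 CPM in all of them.

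In males, Atf3 went from 11.4 ± 0.494 CPM (SD, n = 2) in naïve rats to 69.3 ± 2.24 CPM (n = 2) after CCI. This was a 6.10-fold rise (log2FC 2.61, 95% interval 2.42 to 2.80, adjusted p = 0.00315 by edgeR). Atf3 was called higher in this comparison and Fos was not, and 9.05% of all genes tested were called higher. A larger log2FC was found in 93 genes and a smaller p in 1 gene of the 16988. Without CCI male rat 1, the log2FC of Atf3 was 2.65 and its adjusted p was 0.0502, and no gene at all was called in males by edgeR, although 6494 had an unadjusted p under 0.05.

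In females, Atf3 went from 12.2 ± 0.658 CPM (n = 2) to 128 ± 7.51 CPM (n = 2), a 10.4-fold rise (log2FC 3.37, 95% interval 3.16 to 3.59, adjusted p = 8.12e-06 by edgeR). In this comparison 3.69% of all genes were called higher, with both Atf3 and Fos among them. Atf3 had the smallest p of all genes tested, with a larger log2FC in 47 genes. With any 1 of the females left out, it was still called, and its log2FC lay between 3.32 and 3.44. Averaged over the sexes, on all 8 libraries, Atf3 rose 7.97-fold (log2FC 2.99, 95% interval 2.86 to 3.13, adjusted p = 8.66e-07). It again had the smallest p of all genes, and 6.08% of genes were called higher.

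The sexes did not differ in Atf3 beyond the spread between rats when naïve (log2FC of females against males 0.11, 95% interval -0.16 to 0.38, adjusted p = 0.563). Only 0.0706% of genes were called between the naïve sexes, 12 genes, and neither Atf3 nor Fos was one of them. After CCI, Atf3 was 1.85-fold higher in females (log2FC 0.89, 95% interval 0.71 to 1.07, adjusted p = 0.00835 by edgeR), a direction in which 0.524% of genes were called. This call was lost without CCI female rat 1 (log2FC 0.95, adjusted p = 0.0871) and without CCI female rat 2 (log2FC 0.83, adjusted p = 0.0901), each of which left 1 CCI female.

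The rise of Atf3 itself differed between the sexes by the interaction term, which sets the change in females against that in males. The log2FC of the interaction was 0.78 (95% interval 0.52 to 1.04), that is a 1.72-fold larger rise in females, with an adjusted p = 0.0412 by edgeR on all 8 libraries. In this test 1.59% of genes were called in either direction. The adjusted p was close to the threshold, and leaving out 1 library ended the call in 6 of 8 cases. It was 0.126 without naïve male rat 1, 0.133 without CCI male rat 1, 0.153 without CCI male rat 2, 0.104 without naïve female rat 1, 0.165 without CCI female rat 1 and 0.0885 without CCI female rat 2. The log2FC stayed between 0.72 and 0.84 throughout.

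**Figure D2:**
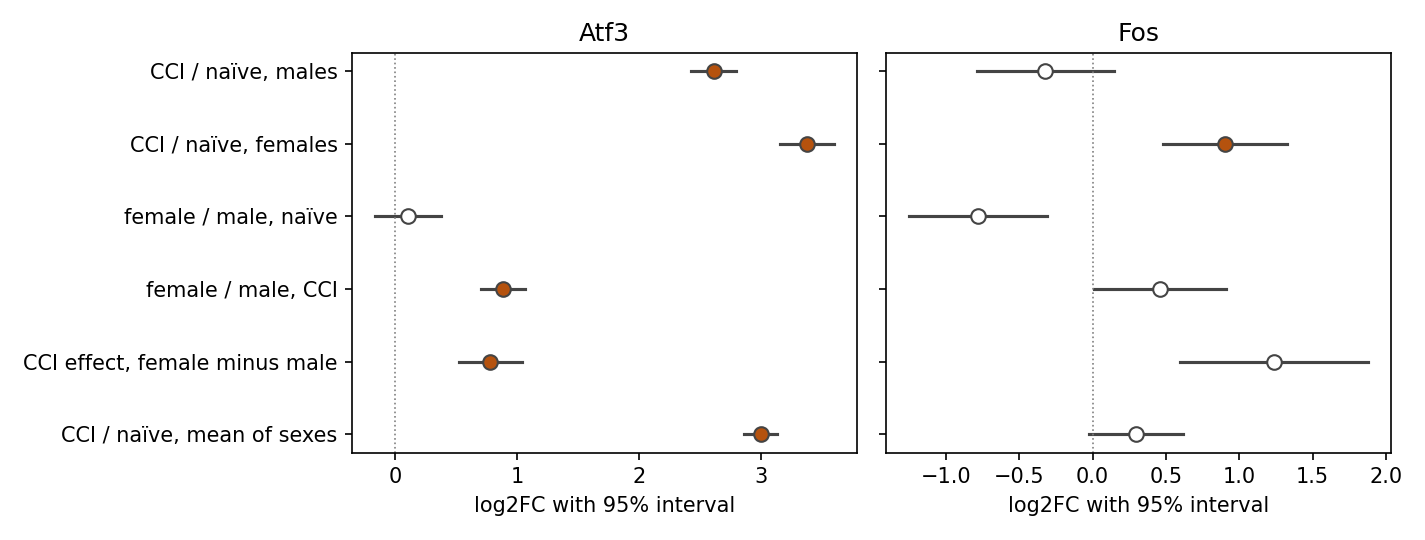
The log2FC of Atf3 (left) and Fos (right) in 6 comparisons, with 95% intervals as bars, filled points for calls and open points for differences that were not called. For Atf3 the male and female intervals for CCI lie well above 0 (2.42 to 2.80 and 3.16 to 3.59), whereas for Fos the male interval includes 0 (-0.79 to 0.15) and the female interval lies above it (0.48 to 1.33). The horizontal scales of the panels differ.

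Fos showed another pattern. It rose in females after CCI, while its values in CCI males were lower than in naïve males by an amount that did not pass the test. Naïve females were the lowest, with 166 and 194 reads, or 3.51 and 4.59 CPM. CCI males followed with 375 and 227 reads, or 6.42 and 4.68 CPM. Naïve males had 363 and 381 reads, or 6.94 and 6.99 CPM. CCI females had 310 and 282 reads, or 8.01 and 7.21 CPM, and were the highest. No group overlapped its neighbour in this order, but the gaps were small. CCI male rat 2 was only just above naïve female rat 2.

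The spread of Fos within a group was uneven. The 2 naïve males were almost alike, with a ratio of rat 2 to rat 1 of 1.01 (95% interval 0.870 to 1.17, counting error only). In CCI males the ratio was 0.729 (0.615 to 0.862), further apart than counting noise by the exact binomial test (2-sided p = 0.000162), and 12.5% of all genes differed more than Fos between these 2 rats. In naïve females it was 1.31 (1.06 to 1.62, exact p = 0.0113) and in CCI females 0.901 (0.764 to 1.06).

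In females, Fos went from 4.05 ± 0.762 CPM (SD, n = 2) to 7.61 ± 0.563 CPM (n = 2), a 1.87-fold rise (log2FC 0.90, 95% interval 0.48 to 1.33, adjusted p = 0.0255 by edgeR). A larger log2FC was found in 578 genes. The call did not hold without CCI female rat 1 (log2FC 0.84, adjusted p = 0.150) or without CCI female rat 2 (log2FC 0.99, adjusted p = 0.184).

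In males, the mean of Fos was 6.96 ± 0.0336 CPM (n = 2) without and 5.55 ± 1.23 CPM (n = 2) with CCI. The log2FC of -0.32 did not pass (95% interval -0.79 to 0.15, adjusted p = 0.223 by edgeR), an interval that holds both no change and a fall by 0.79 on the log2 scale. Without CCI male rat 1 the log2FC was -0.56, and without CCI male rat 2 it was -0.12, with no call in either case. The average over the sexes joined values on both sides of 0 (log2FC 0.29, adjusted p = 0.126).

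Both naïve males lay above both naïve females in Fos, with a log2FC of females against males of -0.78 (95% interval -1.25 to -0.31) and an unadjusted p of 0.00784. This difference was not called by edgeR on the 4 naïve libraries (adjusted p = 0.108). It was called by edgeR fitted over all 8 libraries (adjusted p = 0.0475) and by DESeq2 on the naïve libraries (adjusted p = 0.0226). After CCI both females lay above both males, with a log2FC of 0.46 (95% interval 0.01 to 0.91, adjusted p = 0.267), again without a call. Since the comparisons within a sex use the same naïve libraries as the one between the naïve sexes, they are not separate evidence.

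For the interaction of sex and CCI, Fos had a larger log2FC than Atf3, 1.24 against 0.78, but a wider 95% interval (0.60 to 1.88). Its adjusted p = 0.0659 by edgeR missed the threshold, with an unadjusted p of 0.00225. DESeq2 called it (adjusted p = 0.00518), as did edgeR without a filter on low counts (adjusted p = 0.0279). With 1 library left out, the log2FC lay between 1.03 and 1.48 and the adjusted p between 0.0511 and 0.224. The call thus depended on the tool and the filter, while the log2FC was above 0 in each of these fits.

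**Figure D3:**
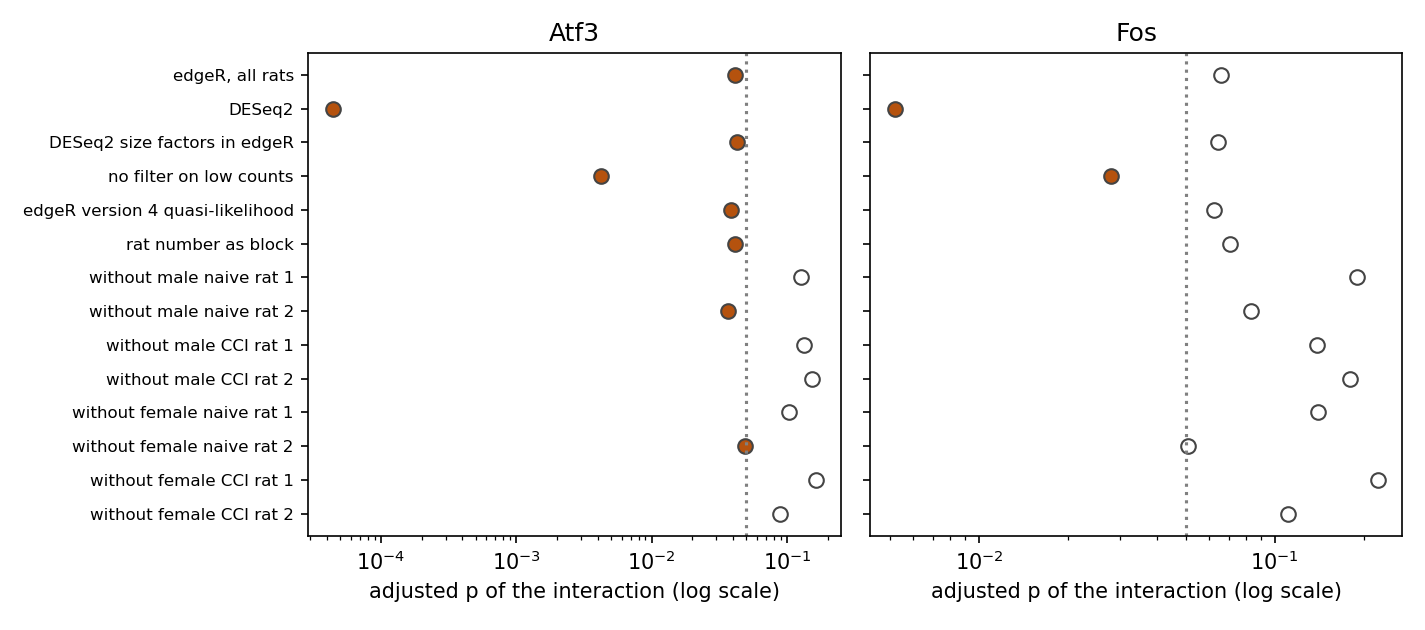
Adjusted p of the interaction of sex and CCI for Atf3 (left) and Fos (right) on a log scale, with 1 point per setting, filled under the threshold of 0.05 (dotted line) and open above it. Atf3 passes in each fit that keeps all rats (4.39e-05 to 0.0428) and in 2 of 8 fits with a rat left out, whereas Fos passes with DESeq2 (0.00518) and without a filter on low counts (0.0279).

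Markers of several cell types also moved with CCI in these libraries. Markers and listed genes could be found only through the paper's lists, which hold genes picked by the authors for their change in the same libraries, so none of the counts, medians and sums from here on is independent evidence of a direction. In bulk tissue, fewer cells of a type and less RNA per cell cannot be told apart. Of 15 markers of sensory neurons (cytoskeletal, synaptic and peptide genes), 9 have an identifier in the paper's lists, and none of them was at 0. Of these, 8 were called higher after CCI in males and 0 in females, where 9.05% and 3.69% of all genes were, with a median log2FC of 0.68 and 0.23 beside -0.01 and -0.02 over all genes. The neurofilament genes Nefm, Nefl and Nefh held most of the summed level of the 9 markers. Their means in naïve males were 6241, 5630 and 3670 CPM, and Uchl1 followed at 1426 CPM. In males the 9 markers summed to 18788 and 21193 CPM without CCI and to 30610 and 31425 CPM with it. In females they summed to 23031 and 23756 CPM without CCI and to 24056 and 28522 CPM with it. Markers of myelinating Schwann cells went the other way. All 5 of 8 that have an identifier were called lower in CCI males and 2 in CCI females, where 12.5% and 2% of all genes were called lower. Their summed level was 10754 to 13108 CPM without and 3220 to 3374 CPM with CCI in males, and 7519 to 9265 CPM without and 4130 to 5397 CPM with CCI in females.

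Set against the summed neuron markers of its own library, Atf3 stood at 6.25 and 5.21 CPM per 10000 marker CPM in naïve males and at 22.1 and 22.6 in CCI males. In naïve females it stood at 5.52 and 4.96, and in CCI females at 50.9 and 46.7. On this scale too, no CCI rat overlapped a naïve rat, and CCI females lay above CCI males. Since 8 of the 9 markers in the divisor were themselves called higher in CCI males and 0 in CCI females, no comparison of the size of the sex difference is drawn from this scale. For Fos the naïve males stood at 3.69 and 3.30 and the CCI males at 2.10 and 1.49. The naïve females stood at 1.52 and 1.93 and the CCI females at 3.33 and 2.53. CCI males and naïve females then overlapped, as did naïve males and CCI females. These ratios are given as a description, without a test.

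**Figure D4:**
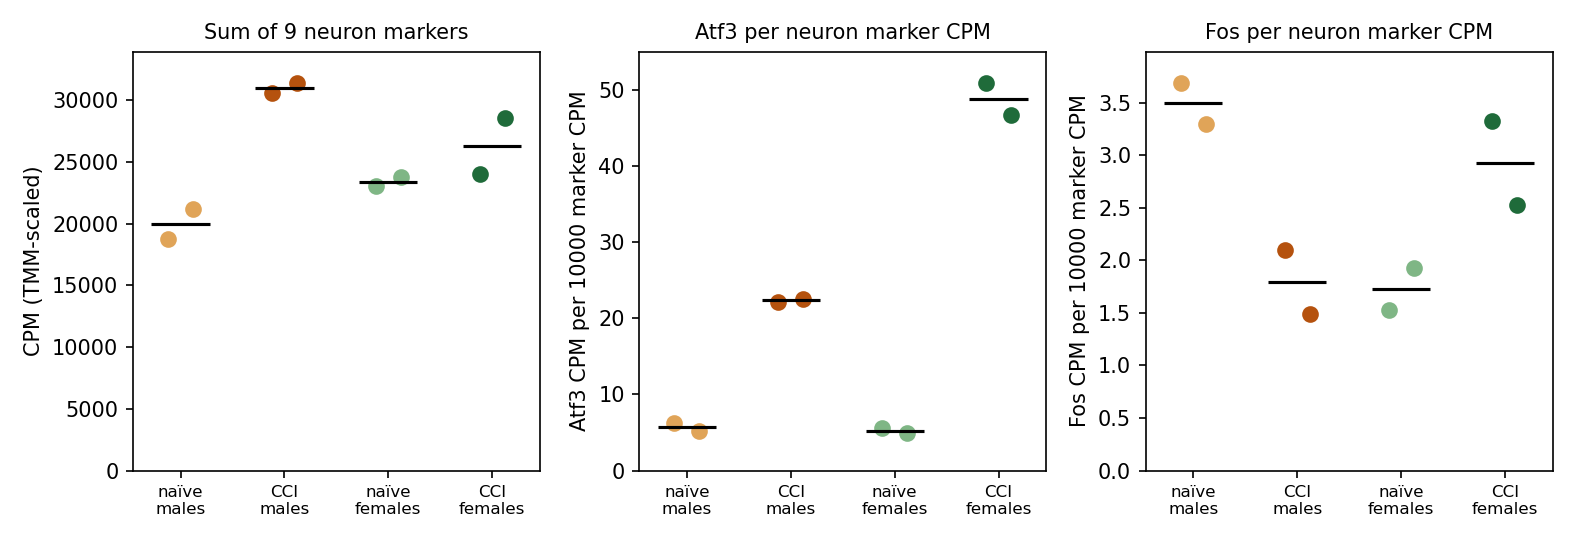
The summed CPM of 9 neuron markers (left), and the CPM of Atf3 (middle) and Fos (right) per 10000 CPM of these markers, with 1 point per rat and a line at the mean of the 2 rats. Most of the marker sum comes from the neurofilament genes Nefm, Nefl and Nefh. The marker sum is highest in CCI males (30610 and 31425 CPM), while Atf3 per marker is highest in CCI females (50.9 and 46.7).

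Other cell types were seen through fewer markers. All 4 of 6 fibroblast markers with an identifier were called lower in CCI males and 0 in females, beside 12.5% and 2% of all genes, with sums in males of 2841 to 2983 CPM without and 1779 to 1829 CPM with CCI, and in females of 2634 to 2777 CPM without and 2489 to 2518 CPM with CCI. The 7 hemoglobin and erythroid genes were all called lower in CCI females, beside 2% of all genes, the alpha and beta globin genes being near-identical copies whose reads may be split. The 2 naïve males stood far apart in their sum, at 130 and 1388 CPM, beside 222 to 252 CPM in CCI males. Among females it was 1351 to 2029 CPM without and 168 to 212 CPM with CCI. The 4 of 10 muscle markers with an identifier join skeletal muscle genes (Casq1 and Mybpc1) and smooth muscle genes (Actg2 and Acta2). Acta2 held much of their sum, with means of 29.2 CPM in naïve males and 42.1 CPM in CCI males. All 4 were called higher in CCI males, beside 9.05% of all genes, and their sum there was 67.9 to 74.7 CPM against 33.3 to 39.0 CPM in naïve males. In females 2 were called lower, beside 2% of all genes, with sums of 30.2 to 45.6 CPM without and 23.8 to 25.1 CPM with CCI. Macrophages had 1 of 10 markers with an identifier, Cd163, which was higher in CCI females than in CCI males (5.84 ± 0.177 against 1.72 ± 0.252 CPM, log2FC 1.77, adjusted p = 0.0200). Its mean was also higher in naïve females than in naïve males, without a call (4.44 ± 1.14 against 2.11 ± 0.0437 CPM, log2FC 1.07, adjusted p = 0.105 by edgeR). Cd163 was not called for CCI in males (log2FC -0.29) or females (0.39), nor for the interaction (0.69, adjusted p = 0.213). Satellite glia had 1 of 8, Fabp7, which fell in both sexes (log2FC -0.88 and -0.73), and T cells and endothelium had 0 with an identifier. The part of these cells in the values of Atf3 and Fos was not tested.

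Besides Atf3 and Fos, 6 of 50 listed genes of the bZIP class have an identifier in the paper's lists. Jun and the other members of AP-1 are not analysed here for want of an identifier. In males 1 of the 6 was called higher and 2 lower (median log2FC -0.46), and in females 1 higher and 1 lower (median -0.18). Over all genes, 9.05% were called higher and 12.5% lower in males, and 3.69% higher and 2% lower in females. Crebzf, a cofactor that binds other bZIP proteins, was lower in CCI males than in naïve males (26.7 ± 2.05 against 42.5 ± 3.10 CPM, log2FC -0.67, adjusted p = 0.00712), and so was Maf (51.6 ± 3.63 against 77.0 ± 2.33 CPM, log2FC -0.57, adjusted p = 0.00760). Dbp, an output gene of the circadian clock, was higher in CCI males (27.3 ± 0.499 against 17.2 ± 0.322 CPM, log2FC 0.67, adjusted p = 0.00565), and its log2FC in females was -0.40 (adjusted p = 0.106).

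Cebpd, a C/EBP factor of the acute-phase response, rose in females from 14.4 ± 1.47 to 21.3 ± 0.515 CPM (log2FC 0.56, adjusted p = 0.0245), while its log2FC in males was -0.46 (adjusted p = 0.0171), under the threshold of size. The interaction was called for Cebpd (log2FC 1.03, adjusted p = 0.0405), for Mafk, a small Maf protein (log2FC 0.64, adjusted p = 0.0499), and for Dbp in the opposite direction (log2FC -1.06, adjusted p = 0.0405). The call of Mafk was lost with the version 4 fit of edgeR (adjusted p = 0.0524) and with the replicate number as a block (adjusted p = 0.0529). Nfe2, a factor of the erythroid and megakaryocytic lineages, fell in females from 1.39 ± 0.378 to 0.321 ± 0.0886 CPM (log2FC -2.11, adjusted p = 0.0239), and the hemoglobin genes fell in the same libraries. Without CCI male rat 1 none of the calls in males held. Without CCI female rat 1 or rat 2, those of Cebpd and Nfe2 in females did not hold either, with adjusted p-values of 0.142 to 0.204. Without naïve female rat 1, Cebpd passed the adjusted p with a log2FC of 0.46, under the threshold of size.

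Fos is the founding member of the immediate-early genes, of which 7 of 33 others listed have an identifier. In males 0 were called higher and 2 lower (median log2FC -0.35), and in females 2 were called higher and 0 lower (median 0.17). Of all genes, the shares called were 9.05% higher and 12.5% lower in males and 3.69% and 2% in females. The zinc finger factor Egr3 fell in males from 13.7 ± 1.20 to 6.39 ± 0.248 CPM (log2FC -1.10, adjusted p = 0.00565), and Egr2, a factor of myelinating Schwann cells, fell from 36.3 ± 6.4 to 23.9 ± 1.10 CPM (log2FC -0.60, adjusted p = 0.0212). The call of Egr2 did not hold with naïve male rat 1 (log2FC -0.42), CCI male rat 1 (adjusted p = 0.0883) or CCI male rat 2 (adjusted p = 0.108) left out. The orphan nuclear receptor Nr4a1 passed the adjusted p in males but not the threshold of size (log2FC -0.49, adjusted p = 0.0233). The phosphatase Dusp6 (log2FC -0.34, adjusted p = 0.0541) and the kinase Sgk1 (-0.26, adjusted p = 0.148) had values below 0 in males without a call.

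Socs3, an inhibitor of cytokine signalling through STAT3, had 5.40 ± 0.0928 CPM without and 5.47 ± 0.0371 CPM with CCI in males, and it rose in females from 2.94 ± 0.0514 to 7.23 ± 1.29 CPM (log2FC 1.29, adjusted p = 0.00873). The interaction was called for it (log2FC 1.28, adjusted p = 0.0483). Per1, a clock gene that also responds to glucocorticoids, rose in females from 14.96 ± 3.25 to 25.2 ± 4.28 CPM (log2FC 0.74, adjusted p = 0.0381), with a log2FC of -0.35 in males (adjusted p = 0.0619) and no call of the interaction (log2FC 1.11, adjusted p = 0.0666). As with Fos, the naïve females held the lowest mean of the 4 groups for both genes and the CCI females the highest. Without CCI female rat 1 or rat 2, neither was called in females (adjusted p from 0.0693 to 0.328).

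Upstream of these factors, stress and growth signals reach Jun, Atf3 and Fos through the JNK and ERK kinase cascades. Of 29 listed kinases and factors of this path, 5 have an identifier, of which 2 were called higher and 1 lower in males, and 0 in females, with a median log2FC of 0.48 and -1.84e-05. Of all genes, 9.05% were called higher and 12.5% lower in males, and 3.69% higher and 2% lower in females. With 5 genes, 0 calls in females is near these shares. Mapk10, the neuronal JNK, rose in males from 193 ± 9.31 to 283 ± 2.22 CPM (log2FC 0.55, adjusted p = 0.00683) and was 202 ± 5.47 and 202 ± 2.75 CPM in naïve and CCI females, with an interaction of -0.55 (adjusted p = 0.0483). Map2k4, a kinase that activates JNK, rose in males from 74.5 ± 3.91 to 105 ± 4.84 CPM (log2FC 0.51, adjusted p = 0.00910). Mapk9, another JNK, passed the adjusted p but not the threshold of size (log2FC 0.48, adjusted p = 0.00854). The summed neuron markers were higher in the same male libraries. Srf, the factor through which serum switches on Fos, fell in males from 34.7 ± 3.67 to 23.6 ± 3.03 CPM (log2FC -0.55, adjusted p = 0.0219). With naïve male rat 1 left out, Map2k4 (log2FC 0.45), Mapk10 (0.50) and Srf (-0.45) were no longer called, nor was Srf without CCI male rat 2 (-0.43).

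Of 25 listed genes known to be induced together with Atf3 in injured sensory neurons, 13 have an identifier. All 13 were called higher in males and 12 in females, beside 9.05% and 3.69% of all genes, with a median log2FC of 1.82 and 1.66. Flrt3, a membrane protein of axon guidance, rose from 32.3 ± 0.447 to 73.9 ± 2.33 CPM in males (log2FC 1.20, adjusted p = 0.00565) and from 31.6 ± 1.99 to 101 ± 0.432 CPM in females (log2FC 1.66, adjusted p = 0.000139). Gap43, a growth cone protein, rose in both sexes as well (log2FC 0.93 and 1.02), as did the stress gene Gadd45a (1.05 and 1.22), the cytokine receptor Lifr (0.95 and 0.70), the muscle and stress protein Ankrd1 (4.19 and 4.55), the neuropeptides Vip (5.65 and 5.62) and Gal (2.56 and 3.09), the lectin Reg3b (4.75 and 5.90) and the calcium channel subunit Cacna2d1 (1.82 and 1.92). Among females, the call of Lifr was lost without CCI female rat 1 (log2FC 0.78) and without CCI female rat 2 (log2FC 0.64). The interaction was called for Csf1, a cytokine for macrophages and microglia, which rose more in females (log2FC 0.64, adjusted p = 0.0495), and for the neuropeptide Nts, with an interaction of -1.71 (adjusted p = 0.0483). Nts rose in males (log2FC 2.34, adjusted p = 0.00565), and its log2FC in females was 0.62 (adjusted p = 0.167). With the replicate number as a block, the interaction was no longer called for Csf1 or Nts (adjusted p = 0.0538 for both), and that of Csf1 was also lost with the version 4 fit (adjusted p = 0.0524) and with the size factors of DESeq2 (adjusted p = 0.0513). Without naïve male rat 1, CCI male rat 2 or CCI female rat 2 the interaction was called for 0 genes by edgeR, with 2728, 3147 and 3887 genes at an unadjusted p under 0.05. It was not called for Flrt3 (0.48, adjusted p = 0.0579), Gal (0.55, adjusted p = 0.189) or Reg3b (1.17, adjusted p = 0.0953). Of 15 genes of the integrated stress response, in which Atf4 and Atf3 act, 1 has an identifier: Ddit4 had a log2FC of -0.27 in males and 0.28 in females, neither called (adjusted p = 0.0580 and 0.113).

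**Figure D5:**
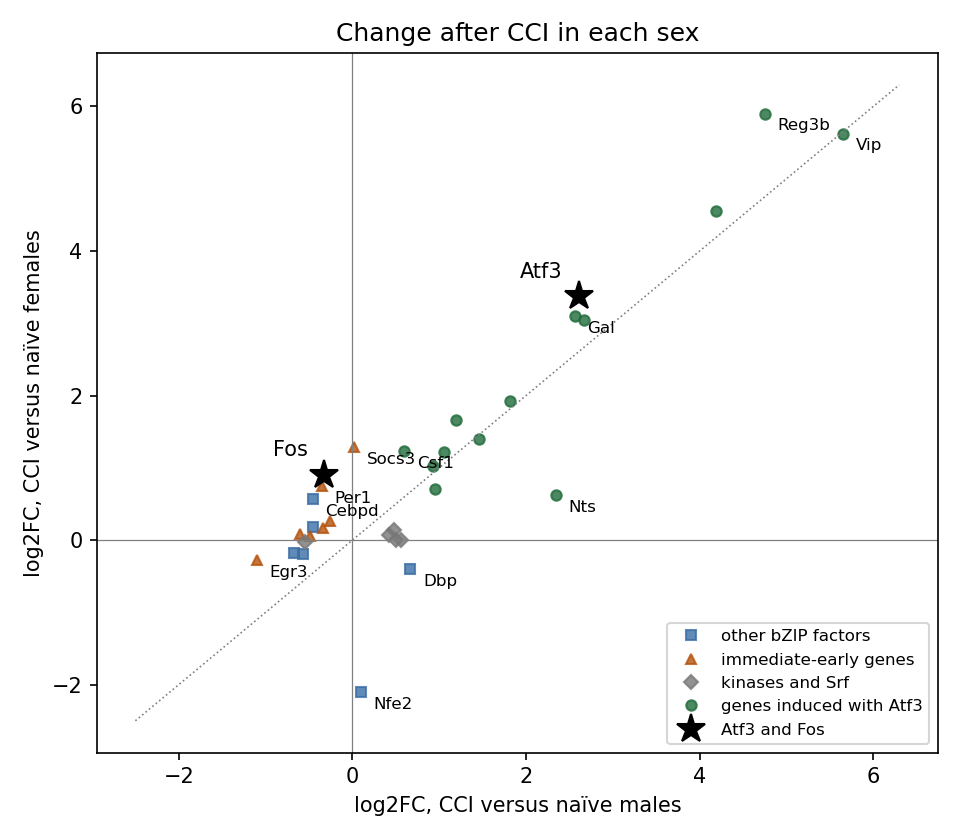
The log2FC after CCI in males (horizontal) and females (vertical) of Atf3, Fos and the listed genes that have an identifier, with 1 point per gene and the line of equal change dotted. The lists shown are the bZIP factors, immediate-early genes, upstream kinases and factors, and genes induced with Atf3. Ddit4 and the cell type markers are not shown. Atf3 lies at 2.61 and 3.37 among the genes induced with it, and Fos at -0.32 and 0.90 near Per1 and Cebpd.

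By the likeness of log2 CPM over the 8 libraries, Flrt3 was among the genes nearest to Atf3 (Pearson's r = 0.9965), out of 13082 others above a floor on mean level (log2 CPM 1). Its groups stood in nearly the same order, with the naïve rats of both sexes lowest and the CCI females highest. The 3 genes that followed it have no symbol in the sources used here (r = 0.995 to 0.996). The 5 genes nearest to Fos were less like it (r = 0.936 to 0.948) and none has a symbol. The nearest, ENSRNOG00000060144, lay between 25.8 ± 1.22 CPM in naïve females and 30.2 ± 0.0588 CPM in CCI females, a much narrower range than that of Fos. The libraries fall into groups by CCI and sex, and these values describe that shared order only.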

How the data were processed

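The deposited values are raw counts per Ensembl gene. By the paper's methods and the submitters' processing notes, the authors aligned strand-specific poly(A) paired-end reads to rn6 with HISAT2, removed ribosomal RNA reads and counted with featureCounts, without batch correction. Counts were filtered with filterByExpr on all 8 libraries (a count of 10, a total of 15), normalized with TMM and tested with the quasi-likelihood test of edgeR 4.0.16 (legacy fit, R 4.3.3), on the 4 libraries compared or on all 8 for the interaction and the average. The SE is the log2FC over the square root of F. The prior count for log2 CPM was 2.

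Symbols came from 1961 identifier pairs in the paper's tables. Members and lists were chosen with earlier results of these data known. Of each list, up to 6 members by adjusted p in the comparison described and up to 3 abundant uncalled ones could be named, and for likeness the 5 genes of highest r. Of the genes this rule names, 2 are not reported here. Alternatives were DESeq2 1.42.0 or its size factors, edgeR on all libraries, no low-count filter, the version 4 fit, a replicate block, and each library left out. In simulated counts with 200 of 16988 genes changed, in CCI males only, edgeR recovered 137 of them in 153 calls for CCI in males. For the interaction, edgeR recovered 115 in 129 calls and DESeq2 131 in 162 calls. The remaining calls were false. The simulation had far fewer changed genes than these libraries, where 3663 genes were called for CCI in males, so its error rates need not hold here.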

Additional observations from a re-analysis of the deposited data

Results flagged for a closer look

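Cell type markers aside, the genes named above are Atf3, Fos and 29 listed genes. The interaction term of edgeR's quasi-likelihood test was called for 8 of them, beside 1.59% of all genes tested. Most symbols came from lists that the authors picked for change in the same libraries, so this count is not independent evidence. The log2FC for CCI was higher in females than in males for Atf3 (log2FC 0.78, adjusted p = 0.0412), Cebpd (1.03, adjusted p = 0.0405), Mafk (0.64, adjusted p = 0.0499), Socs3 (1.28, adjusted p = 0.0483) and Csf1 (0.64, adjusted p = 0.0495). It was lower in females than in males for Dbp (-1.06, adjusted p = 0.0405), Mapk10 (-0.55, adjusted p = 0.0483) and Nts (-1.71, adjusted p = 0.0483). Of the cell type markers named above, the muscle genes Actg2 (-4.81, adjusted p = 0.0402), Mybpc1 (-4.27, adjusted p = 0.0405) and Casq1 (-2.07, adjusted p = 0.0412) were also called, each lower in females. With the replicate number as a block, Mafk (adjusted p = 0.0529), Nts and Csf1 (adjusted p = 0.0538 for both) were no longer called. All 8 adjusted p-values lie close under the threshold, and without naïve male rat 1, CCI male rat 2 or CCI female rat 2 the test called 0 genes of the whole table, while 2728, 3147 and 3887 genes had an unadjusted p under 0.05.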

How the results depend on the processing

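Of the 66 alternative values of Atf3, 57 kept their direction and call and 9 lost the call, each with 1 library left out. Of the 66 of Fos, 60 kept both, 4 gained a call and 2 lost it. DESeq2 (log2FC -0.78) and edgeR over all 8 libraries (-0.78) gained the call of Fos between the naïve sexes, and DESeq2 (1.23) and the fit without a filter (1.22) gained that of the interaction. The cause was not tested. Of the listed genes, 61 results of 29 genes were fitted again. No value among these changed direction in 649 alternatives, in which 546 kept their side of the threshold, 89 lost the call and 14 gained it. Values for CCI in females close to no change, such as those of Map2k4 (log2FC -1.84e-05) and Mapk10 (-0.0046), were not fitted again. Nor were the cell type markers, so the lack of reversals covers the chosen results only.

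Counts of calls moved more. Between the naïve sexes 12 genes were called, against 1014 with DESeq2, 906 over all 8 libraries, 130 without a filter and 6 with the replicate block. Between the CCI sexes 180 were called, against 375 with DESeq2, 284 without a filter and 68 with the replicate block, and for the interaction 270, against 1573 with DESeq2 and 1032 without a filter.

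With 1 library left out, calls ranged from 0 to 3722 for CCI in males (0 without CCI male rat 1), 84 to 1836 in females, 6 to 327 between naïve and 32 to 656 between CCI sexes, 0 to 563 for the interaction and 2009 to 2755 for the average. The log2FC of Atf3 ranged from 2.57 to 2.65 in males, 3.32 to 3.44 in females, 0.83 to 0.95 between CCI sexes and 0.72 to 0.84 for the interaction, and that of Fos from 0.72 to 1.11 in females. A group then holds 1 rat, which is assumed to vary like the others.

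Replicate numbers are shared between groups but mark no stated pairing. The columns of naïve male rat 1 and CCI male rat 1 both carry an added letter whose meaning is not given. Same-numbered deviations correlated at 0.731 between naïve and CCI males, -0.0079 in females, 0.129 between naïve and -0.020 between CCI sexes. Among the results of the 29 listed genes that were fitted again, the replicate block ended the interaction calls of Mafk, Nts and Csf1 and no other call. The cell type markers were not fitted with it. It changed no call of Atf3 or Fos, with an interaction of 0.78 (adjusted p = 0.0413) and 1.24 (adjusted p = 0.0704). Fos had 166 to 381 reads per library, fewer than Atf3, and the part of depth in its results was not tested.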
